A study of Mus musculus with 12 samples.

Results

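The 4 myogenic regulatory factors *Myod1*, *Myog*, *Myf5* and *Myf6* and the 3 Mef2 factors *Mef2a*, *Mef2c* and *Mef2d* were followed in gastrocnemius muscle of FSHD-like mice. They were found by their gene name in the deposited count table, where 7 of 37748 genes bear these names. The study induced the human *DUX4* gene in mouse skeletal muscle at different doses of tamoxifen (TMX) and sequenced polyadenylated RNA from 12 mice, 3 in each of 4 groups. Control mice carried the single transgene ACTA1-MCM/+, a tamoxifen-inducible Cre recombinase (MerCreMer) under the ACTA1 promoter, which is active in skeletal muscle fibers. FLExD mice carried FLExDUX4/+ alone, the *DUX4* transgene that stays inverted until Cre turns it, and are treated here as single-transgenic, although their sample description names a mild pathology. Moderate and severe mice carried both (FLExDUX4/+;MCM/+). Moderate mice received 1 TMX injection of 5 mg/kg, and severe mice received 2 injections of 10 mg/kg on consecutive days. Muscle was taken at 13 weeks of age, on day 9 after TMX for both models. By the treatment label of each library the control and FLExD mice received no TMX, so that TMX, recombination and DUX4 cannot be told apart in a comparison with them. In the bi-transgenic muscle DUX4 protein is mosaic, so each library mixes recombined and unrecombined fibers with the other cells of the muscle.

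The myogenic regulatory factors are basic helix-loop-helix proteins that bind E-boxes (CANNTG) as dimers with E proteins. Myf5 and MyoD set the myogenic fate of muscle precursors and are made by activated satellite cells, the stem cells of muscle. Myogenin, the product of *Myog*, drives the step from dividing myoblast to fusing myocyte, and Mrf4, the product of *Myf6*, is the member most abundant in mature fibers. Mef2 proteins are MADS-box factors that bind an A/T-rich motif and act with the myogenic factors. In adult fibers they are held back by class IIa histone deacetylases and released by calcium-dependent kinases.

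The genes lie in 6 places in the mouse genome (GENCODE M21, GRCm38), all as protein-coding genes. *Myod1* lies at chr7:46376474-46379099 on the plus strand, *Myog* at chr1:134289989-134292548 on the plus strand and *Mef2a* at chr7:67231163-67372858 on the minus strand. *Myf6* (chr10:107492853-107494737) and *Myf5* (chr10:107482908-107486134) lie in tandem on the minus strand with 6718 bases between them. *Mef2c* occupies chr13:83504034-83667080 and *Mef2d* chr3:88142372-88172086, both on the plus strand. *Mef2a* overlaps *Lysmd4* on the opposite strand, which had at most 274 counts in any library, and *Mef2d* overlaps the antisense gene *1700113A16Rik*, with at most 170. Whether the counting used strand is not given in the sources used here, so a small part of the *Mef2a* and *Mef2d* counts is uncertain.

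RefSeq windows of 300 bases, from 250 before to 50 after a transcription start (GRCm38.p6), were found for 5 of the 7 genes, with 3 windows for *Mef2c*. The bases before the start are shown for *Myog*, the factor with the largest increase among the 7, and for *Myf5*, which also rose. They are also shown for the first *Mef2c* window, whose gene fell in the severe model under TMM. Capitals mark E-boxes, the MEF3 motif (TCAGGTTTC on either strand), and stretches that match the 10-base MEF2 motif with at most 1 mismatch. All motifs were read on both strands, and none of the marked stretches in these 3 windows overlap.
Myog, chr1:134289754-134290003, plus strand: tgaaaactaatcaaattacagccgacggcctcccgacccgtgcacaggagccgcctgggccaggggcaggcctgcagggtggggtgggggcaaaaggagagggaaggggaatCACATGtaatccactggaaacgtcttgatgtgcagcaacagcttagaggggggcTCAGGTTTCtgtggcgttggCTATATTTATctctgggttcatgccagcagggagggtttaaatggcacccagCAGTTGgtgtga
Myf5, chr10:107486135-107486384, minus strand: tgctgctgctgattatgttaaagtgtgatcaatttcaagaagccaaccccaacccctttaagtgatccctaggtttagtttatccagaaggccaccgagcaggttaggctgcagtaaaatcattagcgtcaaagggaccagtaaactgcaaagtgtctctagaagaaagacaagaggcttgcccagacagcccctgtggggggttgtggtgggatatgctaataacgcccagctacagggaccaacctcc
Mef2c, chr13:83503784-83504033, plus strand: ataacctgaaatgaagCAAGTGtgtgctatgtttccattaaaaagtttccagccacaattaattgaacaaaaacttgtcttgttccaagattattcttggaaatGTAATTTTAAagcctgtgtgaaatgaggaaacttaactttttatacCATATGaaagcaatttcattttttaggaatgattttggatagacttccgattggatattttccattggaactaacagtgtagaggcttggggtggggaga
The *Myog* window held 2 E-boxes, CACATG at positions -138 to -133 and CAGTTG at -12 to -7 counted from the start, with the MEF3 motif at -84 to -76 and CTATATTTAT, 1 mismatch from the MEF2 motif, at -64 to -55. Among all 32851 windows of this length 39.6% held 2 or more E-boxes, 0.429% a MEF3 motif and 26.9% a MEF2 match with at most 1 mismatch. An exact MEF2 motif was held by 3.19% of windows. Of the windows of these genes it was in that of *Mef2a*, where CTAAAAATAG spans the start from position -2 to 8. The *Myf5* and *Mef2d* windows held none of these motifs. These are matches of letters only.

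Libraries held 23796902 to 29136403 assigned reads. *Wfdc3*, a gene that DUX4 induces in mouse muscle cells, served as a check of the labels. It lay at 0.0496 to 0.386 CPM, the count scaled to library depth, in the 6 single-transgenic mice and at 62.6 to 116 CPM in the 6 bi-transgenic mice. *Esr1*, part of whose sequence is in MerCreMer, lay at 422 to 819 CPM in control mice, 27.5 to 37.9 in FLExD mice, 95.9 to 124 in moderate mice and 35.2 to 37.4 in severe mice. On this TMM scale the severe libraries were within the range of the mice without the Cre transgene, although their labels carry it. The TMM factors were 1.69 to 1.87 in severe and 0.708 to 0.76 in FLExD mice. By depth alone, without these factors, every severe mouse was above every FLExD mouse for *Esr1*. *Acta1*, the mouse gene whose human counterpart gave the promoter, had a log2 fold change of -1.70 in moderate and -3.48 in severe against control mice, and its part in the *Esr1* values was not tested. Markers of muscle fibers were abundant in every library. Under TMM the summed CPM of 6 of them was 207800 to 291500 in control, 94380 to 114800 in moderate and 23850 to 37590 in severe mice. All 6 were called lower in both models. Scaled by library size alone, 5 were called lower in moderate and 6 in severe mice.

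All CPM values are scaled with TMM factors. These ranged from 0.706 to 0.724 in control mice and from 1.69 to 1.87 in severe mice, so that the choice of scaling matters in these libraries. Under TMM the median log2 fold change of the 16679 tested genes was 0.08 for severe against control mice, and with library size alone it was 1.39. A gene was called when the adjusted p of the edgeR quasi-likelihood test was under 0.05 and its log2 fold change was at least 0.5 in size. All 7 factors passed the filter on low counts, and each had at least 14 counts in every library.

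*Myog* rose the most. Its level was 2.69, 3.18 and 3.84 CPM in the control mice and 3.94, 3.37 and 2.36 in the FLExD mice. In moderate mice it was 32.9, 21.9 and 25.6 CPM, and in severe mice 92.5, 70.4 and 81.2 CPM. The control and FLExD mice overlapped, every moderate mouse was above them, and every severe mouse was above every moderate mouse. *Myog* was 8.25-fold higher in moderate than in control mice (log2 fold change 3.04, SE 0.20, edgeR adjusted p = 6.8e-08). In severe mice it was 25.0-fold higher than in control mice (log2 fold change 4.65, SE 0.20, edgeR adjusted p = 4.7e-10). The size of this increase depends on the scaling, with 5.95 on the log2 scale for library size alone and 5.48 in limma on log2(TPM + 1). Above moderate mice, the severe mice stood 1.60 higher on the log2 scale (SE 0.17, edgeR adjusted p = 8.4e-06).

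*Myf5* rose in both models from a low level. The control mice had 14, 19 and 23 counts, or 0.725, 0.915 and 1.09 CPM, and the FLExD mice 1.03, 0.942 and 0.771 CPM. Moderate mice had 3.19, 2.48 and 3.13 CPM and severe mice 5.95, 4.69 and 5.56 CPM, again with no overlap between the single-transgenic, moderate and severe mice. The log2 fold change was 1.68 (SE 0.21, edgeR adjusted p = 1.2e-05) in moderate and 2.56 (SE 0.20, edgeR adjusted p = 4.3e-08) in severe mice. Library size alone gave 2.28 and 3.86. Between the models it was 0.88 (SE 0.17, edgeR adjusted p = 6.0e-04).

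*Myod1* rose in the severe model. In control mice it lay at 4.97, 4.96 and 3.08 CPM, in FLExD mice at 5.12, 3.42 and 3.52, and in moderate mice at 6.34, 4.0 and 6.20, with 1 moderate mouse inside the control range. Severe mice had 27.4, 18.5 and 20.4 CPM, all above every other mouse. In moderate mice the log2 fold change was 0.35 with a 95% interval of -0.18 to 0.88, which did not pass the test (edgeR adjusted p = 0.246). With library size alone, with library size without the 20 largest genes, and in limma on log2(TPM + 1), it was 0.96, 0.66 and 0.66 and was called. The severe increase was 2.35 (SE 0.23, edgeR adjusted p = 9.2e-07), or 3.67 with library size alone and 3.19 in limma on TPM, and that of severe over moderate mice was 2.0 (SE 0.22, edgeR adjusted p = 1.3e-05).

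*Myf6* went the other way under TMM. Control mice had 54.4, 52.3 and 52.3 CPM and FLExD mice 58.5, 56.4 and 55.4 CPM. Moderate mice had 34.7, 32.4 and 47.5 CPM and severe mice 18.2, 24.9 and 27.1 CPM, with no overlap between control, moderate and severe mice. In the severe model *Myf6* fell to 0.441 of the control level (log2 fold change -1.18, SE 0.15, edgeR adjusted p = 7.2e-06). Under TMM it was also lower in severe than in moderate mice by -0.71 (SE 0.15, edgeR adjusted p = 0.0013). In moderate mice the log2 fold change of -0.47 (SE 0.15, edgeR adjusted p = 0.015) missed the fold threshold. It was -0.69 and called without moderate mouse 1331, the highest of the group. This fall depends on the scaling: for severe against control mice the log2 fold change was 0.11 with library size alone and 0.00084 in limma on log2(TPM + 1), neither of them called. In TPM, the authors' values per transcript length, *Myf6* lay at 48.2 ± 1.31, 51.0 ± 4.35, 48.3 ± 8.39 and 48.7 ± 8.57 (mean ± SD, n = 3) in control, FLExD, moderate and severe mice. The 4 group means in TPM were thus within their spread of each other.

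**Figure D1:**
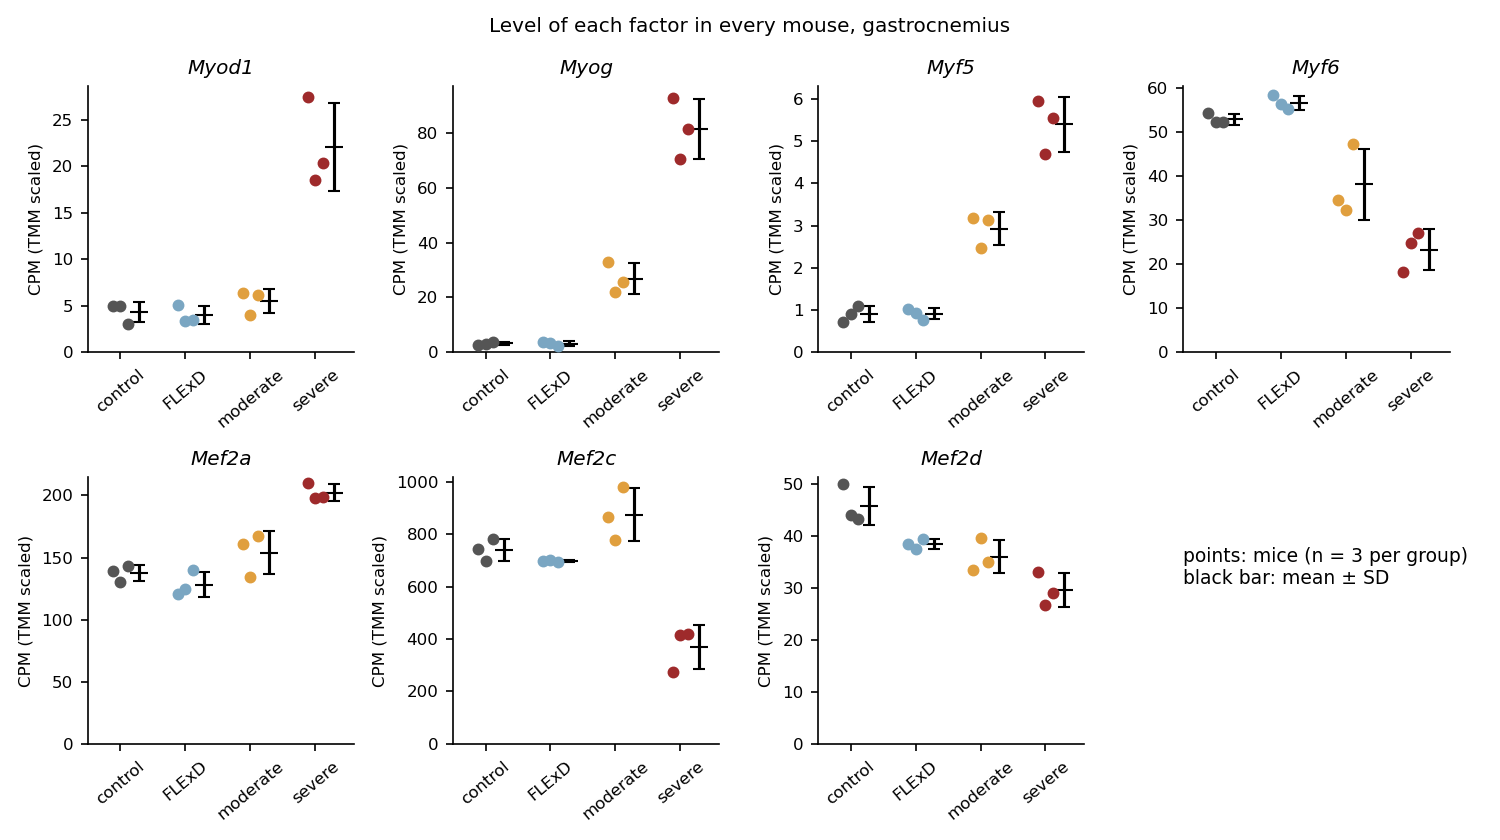
Level of each of the 7 factors in TMM-scaled CPM (y axis, from 0), with 1 point a mouse in the control, FLExD, moderate and severe groups (x axis) and the mean ± SD of 3 mice in black. *Myog* and *Myf5* step up from the single-transgenic mice to the moderate and then the severe mice, *Myod1* is high in severe mice, and *Myf6*, *Mef2c* and *Mef2d* are lowest in severe mice on this scale.

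*Mef2c*, the most abundant of the 7 per transcript length in control mice, fell in the severe model under TMM. It lay at 742, 698 and 780 CPM in control mice, 697, 702 and 694 in FLExD mice, 866, 778 and 981 in moderate mice and 274, 417 and 418 in severe mice. Moderate and control mice overlapped, and the severe mice were below all others. For moderate mice the log2 fold change was 0.24 with an interval of -0.08 to 0.57 (edgeR adjusted p = 0.197), and it was called higher at 0.85 with library size alone, at 0.55 without the 20 largest genes and at 0.72 in limma on TPM. Severe mice were lower than control mice by -1.0 under TMM (SE 0.15, edgeR adjusted p = 4.0e-05). That direction turned with library size alone (0.29) and in limma on TPM (0.14), both not called. Against moderate mice the severe mice were lower by -1.24 (SE 0.15, edgeR adjusted p = 2.2e-05), and by -0.55 with library size alone and -0.58 in limma on TPM, both called.

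*Mef2a* rose in the severe model. The values were 139, 130 and 143 CPM in control, 120, 125 and 140 in FLExD, 161, 134 and 167 in moderate, and 210, 198 and 199 in severe mice. The moderate mice reached into the control range, and the severe mice did not. The log2 fold change was 0.16 in moderate mice (interval -0.05 to 0.38, edgeR adjusted p = 0.182), which with library size alone became 0.77 and was called. In severe mice it was 0.56 (SE 0.10, edgeR adjusted p = 1.7e-04), and 1.87 with library size alone, 1.17 without the 20 largest genes and 1.504 in limma on TPM. Severe exceeded moderate mice by 0.39 (SE 0.10, edgeR adjusted p = 0.0046), under the fold threshold, and by 1.09 with library size alone and 1.10 in limma on TPM, both called.

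*Mef2d* was the least abundant Mef2 factor per transcript length in control mice. Control mice had 50.05, 44.03 and 43.23 CPM, FLExD mice 38.52, 37.43 and 39.35, moderate mice 33.47, 39.52 and 34.98, and severe mice 33.12, 26.72 and 29.01. Moderate and FLExD mice overlapped, both below every control mouse. *Mef2d* fell in severe mice by 0.63 on the log2 scale under TMM (SE 0.10, edgeR adjusted p = 3.9e-05), but was called higher with library size alone (0.68) and in limma on TPM (0.54). Against FLExD mice in place of control mice the severe value was -0.38, under the fold threshold. In moderate mice the log2 fold change of -0.35 (SE 0.10, edgeR adjusted p = 0.0072) and, for severe against moderate mice, that of -0.28 (SE 0.10, edgeR adjusted p = 0.024) did not reach the fold threshold. A further paralog, *Mef2b*, had less than 1 count in every library and was not tested.

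In counts, 0 factors were called in FLExD against control mice, where 0% of genes were called higher and 0.00600% lower, the latter being *Esr1* alone. At an unadjusted p under 0.05 in edgeR, 1 of 7 factors differed, *Mef2d*, with a log2 fold change of -0.25. Of all 16679 genes tested, 638 were under the same cut. DESeq2 and limma also called 0 factors. The groups did not overlap for *Mef2d* and *Myf6*, as for 8.60% of all genes. In moderate against control mice, 2 of 7 factors were called higher and 0 lower, where 24.4% of genes were called higher and 17.0% lower. The groups did not overlap for 4 factors, against 61.0% of genes. In severe against control mice, 4 were called higher and 3 lower, where 32.9% of genes were called higher and 27.9% lower. All 7 factors had groups that did not overlap there, against 75.0% of genes. In severe against moderate mice, 3 were called higher and 2 lower, with 17.6% of genes called higher, 18.8% lower and 61.3% not overlapping.

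**Figure D2:**
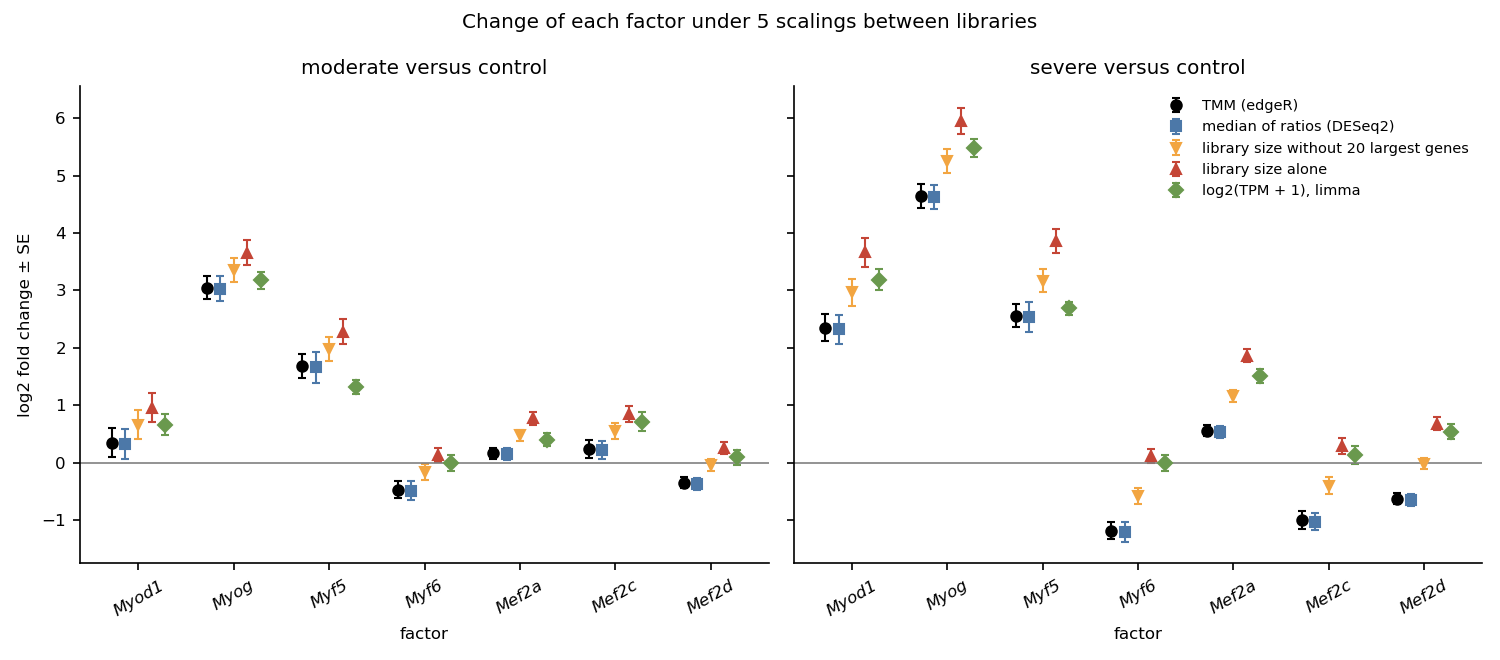
Log2 fold change ± SE (y axis) of each factor (x axis) in moderate and severe against control mice under 5 ways of scaling libraries, 1 symbol each. *Myog* and *Myf5* stay above 0 in both models under all 5, whereas *Myf6*, *Mef2c* and *Mef2d* in severe mice lie below 0 with TMM and DESeq2 and at or above 0 with library size alone and with TPM.

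The ratio of 2 genes in the same library does not depend on how libraries are scaled, so all 9 ratios within the families were compared over mice. Each model of 3 mice was set against the 6 single-transgenic mice with a two-sided exact permutation test, whose smallest possible p is 0.0238. Adjusted over the 18 tests, 7 ratios differed in each model. The log2 ratio of *Myog* to *Myf6* was 3.59 higher in moderate and 5.91 higher in severe than in single-transgenic mice (exact permutation test, adjusted p = 0.0306 for both). *Myf5* to *Myf6* was 2.20 and 3.79 higher, and *Myod1* to *Myf6* 0.94 and 3.66 higher (exact permutation test, adjusted p = 0.0306 for each). *Myog* also rose against *Myf5*, by 1.39 and 2.12, with the same adjusted p in the exact permutation test.

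The log2 ratio of *Myod1* to *Myf5* was 1.26 below that of single-transgenic mice in moderate mice (difference -1.26, exact permutation test, adjusted p = 0.0306) and differed by -0.13 in severe mice (exact permutation test, adjusted p = 0.667). *Myod1* to *Myog* differed by -2.65 and -2.25. For all 9 ratios the 3 severe mice were apart from the 3 moderate mice, where the smallest exact p is 0.10. Among single genes, 61.3% did not overlap between these models. The share of all gene pairs whose ratios differ or stand apart was not computed for any comparison. Ratios within a family share genes and are not independent of each other. The severe minus moderate difference was 2.72 for *Myod1* to *Myf6*, 2.32 for *Myog* to *Myf6* and 1.13 for *Myod1* to *Myf5*.

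Within the Mef2 family, *Mef2a* rose against *Mef2c* by 1.59 and against *Mef2d* by 1.11 in severe mice (exact permutation test, adjusted p = 0.0306 for both). In moderate mice the *Mef2a* to *Mef2c* ratio differed by -0.07 (exact permutation test, adjusted p = 0.202). Taken from TPM, which also divides by a transcript length that differs between libraries, it differed by -0.29 and passed the test. *Mef2c* to *Mef2d* was 0.50 higher in moderate mice (exact permutation test, adjusted p = 0.0306), while in severe mice it differed by -0.48 (exact permutation test, adjusted p = 0.0536).

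**Figure D3:**
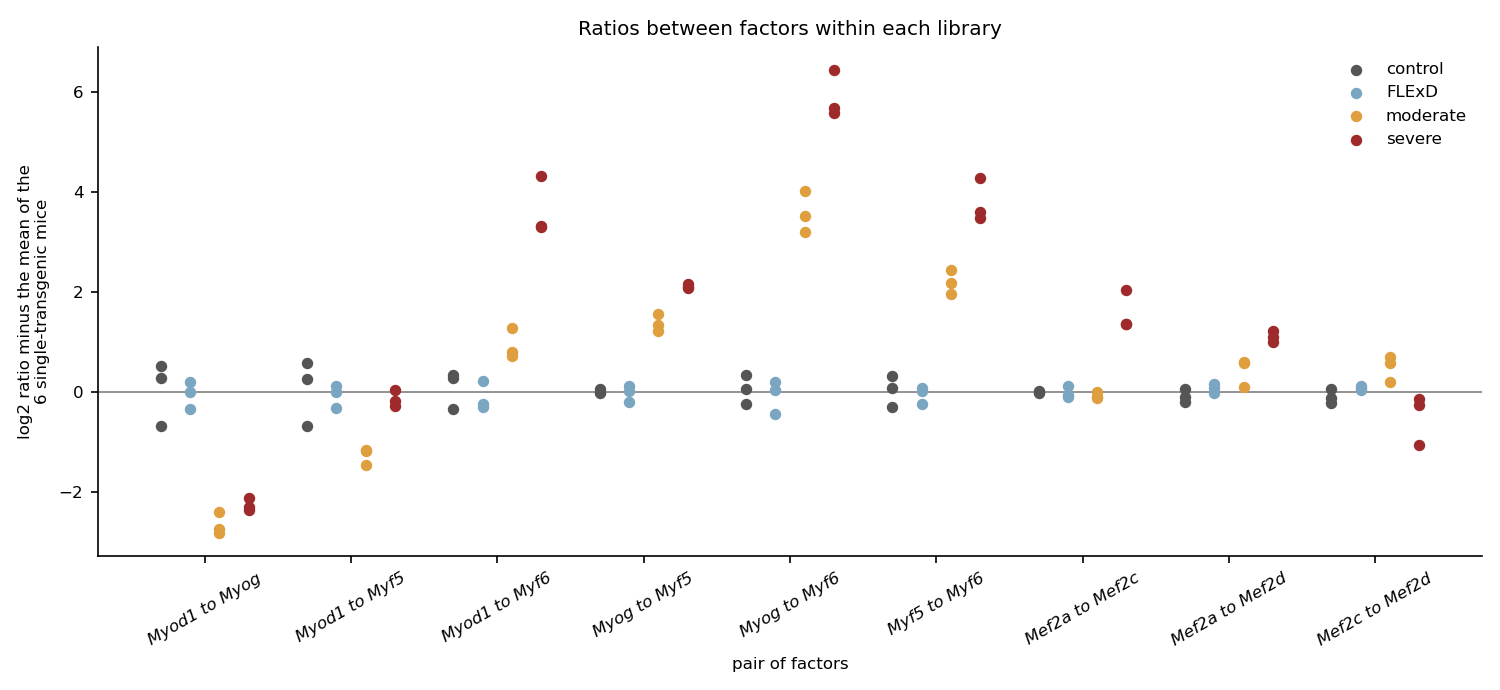
Log2 ratio of the counts of 2 factors in each library (y axis, minus the mean of the 6 single-transgenic mice) for the 9 pairs within a family (x axis), with 1 point a mouse and the group as colour. The 3 ratios to *Myf6* climb from single-transgenic to moderate to severe mice, and *Mef2a* to *Mef2c* stands apart in severe mice.

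Per transcript length, the leading myogenic regulatory factor was *Myf6* in single-transgenic mice and *Myog* in severe mice. *Myf6* made up 86.6% ± 0.773 (SD, n = 3) of their summed TPM in control mice and 87.8% ± 1.85 in FLExD mice. It made up 49.9% ± 6.15 in moderate mice and 16.8% ± 4.46 in severe mice. *Myog* went from 6.24% ± 1.17 in control to 40.7% ± 5.84 in moderate and 67.0% ± 2.86 in severe mice. *Myod1* held 5.71% ± 1.38, 5.73% ± 0.587 and 12.5% ± 1.60 in the same 3 groups, and *Myf5* 1.48% ± 0.300, 3.67% ± 0.119 and 3.64% ± 0.0955. The sum of the 4 was 55.6 ± 1.24 TPM in control, 96.9 ± 10.3 in moderate and 295 ± 34.7 in severe mice.

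Among the Mef2 factors *Mef2c* led in every group, with 76.2% ± 0.727 of their summed TPM in control, 77.3% ± 1.04 in FLExD, 80.9% ± 0.620 in moderate and 59.4% ± 8.20 in severe mice. *Mef2a* held 15.4% ± 0.158 in control, 13.2% ± 0.631 in moderate and 31.6% ± 5.62 in severe mice. *Mef2d* held 8.43% ± 0.573, 5.84% ± 0.742 and 8.99% ± 2.60, the control and severe values overlapping. Severe mouse 1047 had the lowest *Mef2c* share at 49.9% and the highest *Mef2a* share at 38.1%. The order of levels in control mice was *Mef2c* (144 ± 14.2 TPM), *Myf6* (48.2 ± 1.31), *Mef2a* (28.9 ± 2.30), *Mef2d* (15.8 ± 0.681), *Myog* (3.48 ± 0.712), *Myod1* (3.17 ± 0.707) and *Myf5* (0.827 ± 0.180). *Myog* and *Myod1* were within their spread of each other. In severe mice *Myog* (199 ± 31.8 TPM) and *Mef2c* (161 ± 39.7) were at the top within their spread, *Mef2a* followed at 84.0 ± 7.75, and *Myf6* (48.7 ± 8.57) and *Myod1* (37.3 ± 9.36) were within theirs. *Mef2d* (23.6 ± 3.99) and *Myf5* (10.8 ± 1.39) came last.

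**Figure D4:**
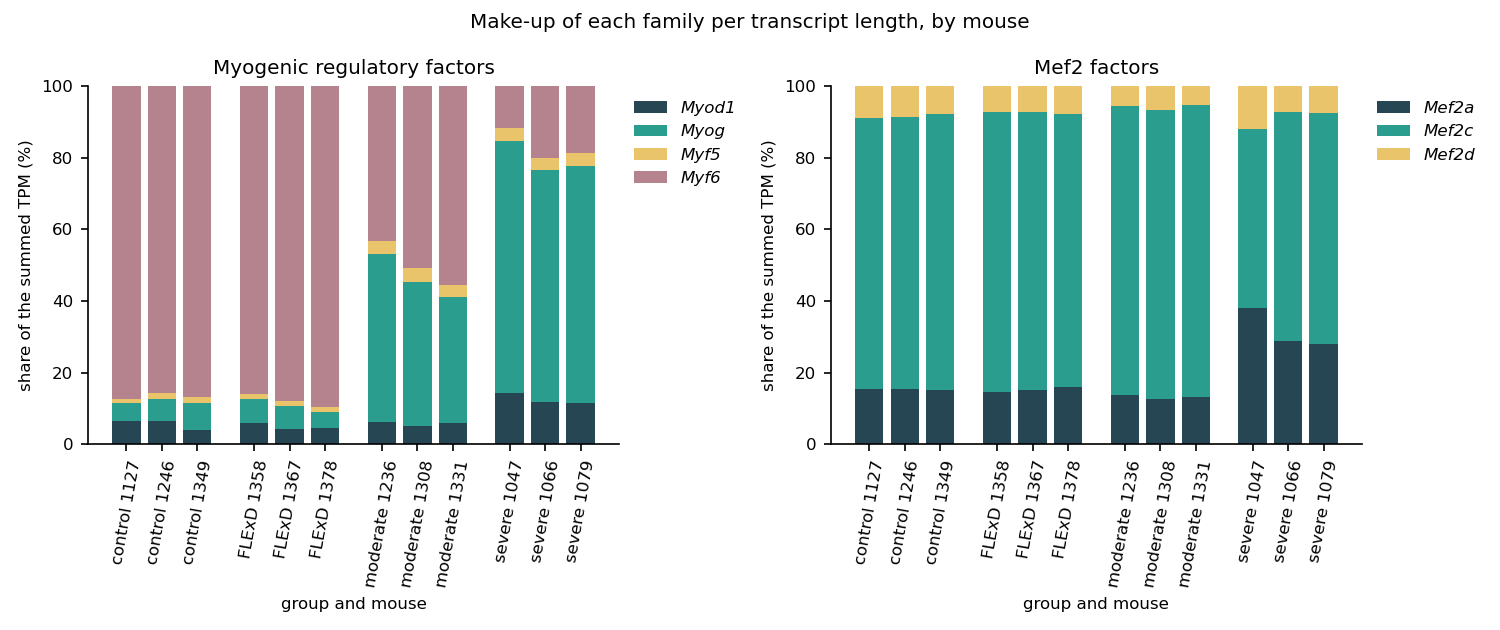
Share of each factor in the summed TPM of its family (y axis, percent) for every mouse (x axis), the 4 myogenic regulatory factors on the left and the 3 Mef2 factors on the right. *Myf6* fills most of the bar in the 6 single-transgenic mice and 16.8% on average in severe mice, where *Myog* fills 67.0%.

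Counts and TPM together give the effective transcript length that the authors' quantification implies for a gene in a library. Relative to control mice it was 1.14 ± 0.0166 for *Mef2a* in moderate and 1.11 ± 0.0102 in severe mice (SD, n = 3), and 1.01 ± 0.0532 in FLExD mice. In severe mice the values of the other 6 lay between 0.950 and 0.994. The median of 12047 genes in severe mice was 0.963, with the 5th and 95th percentiles at 0.876 and 1.22, so that *Mef2a* was inside the range of most genes. No test was made of this value.

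Where *Myod1*, *Myog* and *Myf5* rose, markers of other cells also changed, some up and some down, and 4 marker lists are given here. The summed CPM of 5 proliferation markers went from 1.76 to 3.22 in control mice to 67.7 to 83.3 in moderate and 220 to 280 in severe mice, and all 5 were called higher in both models. Those of 5 macrophage markers went from 61.9 to 80.3 to 261 to 323 and then 584 to 628, with all 5 called higher in both. The 5 satellite cell markers summed to 25.6 to 33.1 CPM in control, 35.9 to 45.8 in moderate and 69.9 to 73.4 in severe mice, with 2 of 5 called in moderate mice (*Pax7*, log2 fold change 1.53, and *Vcam1*, 1.60) and 3 of 5 in severe mice, whereas *Calcr* (0.18) and *Chodl* (-0.51) were not called in severe mice. Scaled by library size alone, 4 and 5 of these 5 were called higher in the models. Markers of endothelial cells, which also make *Mef2c*, summed to 146 to 164 CPM in control, 92.6 to 122 in moderate and 63.5 to 75.8 in severe mice, with 3 of 5 called lower in moderate and 5 of 5 in severe mice under TMM. Scaled by library size alone, 1 of these 5 was lower in moderate mice, and 1 was higher and 1 lower in severe mice. No marker of these 4 lists was at 0 throughout a group, and the part of these cells in the results was not tested. In bulk muscle, fewer cells of a type and less RNA per cell cannot be told apart.

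Calls among partners and regulators of the factors went both ways. In what follows, a pair of values gives the log2 fold change under TMM in moderate and then in severe mice, each against control. The TMM counts of every list in this and the following paragraphs stand beside shares of all genes. These were 24.4% called higher and 17.0% lower in moderate mice, and 32.9% and 27.9% in severe mice. No list, including those of early differentiation and adult fiber genes, was tested against these shares. Of the 3 E protein genes, which encode the dimer partners, 0 were called in moderate mice, and in severe mice *Tcf3* (log2 fold change 0.73) and *Tcf12* (0.90) rose, whereas *Tcf4* was at 0.48. All 3 were called higher in both models when scaled by library size alone. Among 12 genes for Id proteins and other inhibitors of these factors, 4 rose and 2 fell in moderate mice and 6 rose and 2 fell in severe mice, with medians of 0.44 and 0.70. *Id2*, which sequesters E proteins, rose by 1.32 and 2.56, and *Msc*, a repressor of the MyoD family, by 1.09 and 2.68. *Mdfi*, which keeps the factors from the nucleus, rose by 1.62 and 2.80. The members that fell were *Bhlhe40* (-1.05 and -2.06) and *Bhlhe41* (-0.82 and -1.40), and with library size alone the list split as 10 higher and 1 lower in severe mice.

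Among genes upstream of the family, a list of *Pax*, *Eya* and *Pitx* genes with *Six4* and *Six5*, 8 of 9 were tested. In moderate mice 2 rose and 2 fell, and in severe mice 1 rose and 3 fell, with medians of -0.02 and -0.06. *Pax7*, the satellite cell factor, rose by 1.53 and 2.71. *Six4* (-1.18 and -0.99) and *Pitx3* (-1.32 and -0.68) fell in both models under TMM. With library size alone 0 genes of this list were called lower in severe mice and 5 were called higher. *Eya1*, a transcriptional co-factor, rose by 0.97 in moderate mice and was at 0.37 in severe mice, with a severe against moderate difference of -0.60 that was called.

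The 9 genes of class IIa histone deacetylases and their kinases split as 2 higher and 4 lower in moderate mice and 1 higher and 4 lower in severe mice. *Hdac4* fell by 0.72 and 1.63 on the log2 scale, and *Hdac5* fell by 0.61 and 0.83. *Sik1*, a kinase that phosphorylates these deacetylases, rose by 1.86 and 1.96. *Camk2a*, a calcium-dependent kinase, fell by 1.29 and 3.24, whereas its relative *Camk2d* rose by 0.997 in moderate mice and was at 0.22 in severe mice. With library size alone this list had 5 higher and 2 lower in severe mice. The 9 genes listed as co-activators include the kinase genes *Mapk14* and *Mapk7*. Of these 9, 1 rose and 2 fell in moderate mice and 2 rose and 4 fell in severe mice. *Smarcd3*, a chromatin remodelling subunit that acts with MyoD, fell by 1.12 and 2.64, *Mapk14* (p38 alpha) fell by 1.06 and 1.37, and *Mapk7* (ERK5) rose by 0.68 and 1.42. Library size alone gave 7 higher and 1 lower of these in severe mice.

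Genes that the factors are known to drive fell into groups that moved apart. Of 13 genes of early differentiation, 12 rose in both models, with medians of 2.60 and 3.89 beside 0.04 and 0.08 for all genes. *Chrng*, the fetal acetylcholine receptor subunit, had 1, 1 and 0 counts in the control mice, 154 to 304 in the moderate and 1023 to 1568 in the severe mice. *Mymk*, which encodes the fusion protein myomaker, had 1, 1 and 4 counts in control mice, 106 to 246 in moderate and 708 to 1271 in severe mice. *Myh3*, the embryonic myosin, rose by 4.68 and 6.80. The 13th gene, *Actc1*, cardiac actin, was at -0.28 in moderate mice and fell in severe mice by 0.99 on the log2 scale. Its control mice spread from 394 to 1010 CPM and overlapped the severe mice, at 277 to 406 CPM. Scaled by library size alone, 12 of the 13 rose in each model and 0 fell.

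Of 10 genes of the adult fiber, 0 rose, and 9 fell in moderate and 10 in severe mice, with medians of -1.23 and -3.33. *Ckm*, muscle creatine kinase, fell by 1.43 and 3.89, and *Mb*, myoglobin, by 1.49 and 4.54. The control mice spread widely for *Mb*, from 566 to 1752 CPM, beside 298 to 544 CPM in moderate mice. *Des*, desmin, was at -0.33 in moderate mice and fell by 1.29 in severe mice. With library size alone 6 were called lower in moderate mice and 8 in severe mice, with 1 called higher in severe mice.

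The 11 Mef2 targets did not move one way. In moderate mice 4 were higher and 3 lower with a median of 0.18, and in severe mice 3 were higher and 5 lower with a median of -0.58, beside 24.4% and 17.0%, and then 32.9% and 27.9%, of all genes. *Xirp1* rose by 1.46 and 0.97, and the noncoding RNAs *Meg3* (0.90 and 1.49) and *Rian* (0.93 and 1.35), which lie in the same imprinted cluster, also rose. *Slc2a4*, the insulin-responsive glucose transporter, fell by 1.24 and 4.16. *Hrc*, a calcium-binding protein of the sarcoplasmic reticulum, fell by 0.73 and 2.94. *Nr4a1* was at -0.14 in moderate mice and fell by 2.52 in severe mice. Between severe and moderate mice 7 of 11 were called lower and 1 higher, with a median of -1.09. With library size alone 5 were higher and 4 lower in severe against control mice.

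**Figure D5:**
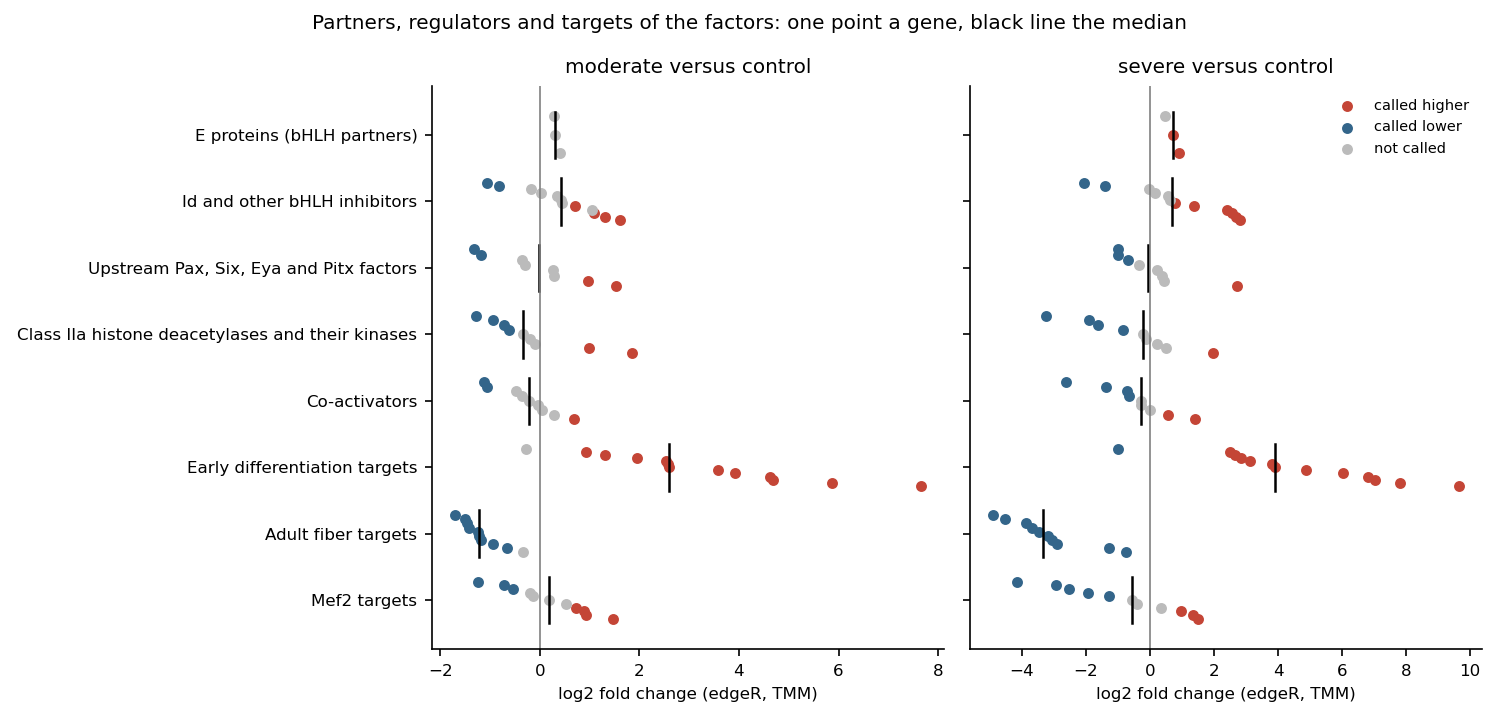
Log2 fold change under TMM (x axis) of every tested gene of 8 lists (y axis) in moderate and severe against control mice, coloured by call, with the median of each list as a black line. Early differentiation genes lie to the right (medians 2.60 and 3.89) and adult fiber genes to the left (medians -1.23 and -3.33), while the lists of partners and regulators lie on both sides of 0.

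For each factor the 3 genes of nearest profile were sought among 13330 genes, by the root mean square difference of centred log2(CPM + 0.5) over the 12 mice. *Myod1* was nearest to *Npl* (0.188), *Mbnl3* (0.274) and *Sh3rf1* (0.293), and *Myog* to *Hist1h2bb* (0.185), *Cenpe* (0.193) and *Hist1h4a* (0.196). *Myf5* was nearest to *Cd63* (0.125), *Rbbp8* (0.126) and *Lyn* (0.127). *Hist1h2bb* and *Hist1h4a* are histone genes with near-identical copies, so that their counts are uncertain, and *Cenpe* encodes a centromere motor protein. The neighbours of *Myf6* were *1810026J23Rik* (0.0855), *Ciao1* (0.0987) and *Taf9* (0.109), and those of *Mef2c* were *Arpc5l* (0.0875), *Srl* (0.0944) and *Sgcd* (0.101). *Srl* and *Sgcd* encode sarcalumenin of the sarcoplasmic reticulum and delta-sarcoglycan of the fiber membrane. *Mef2a* was nearest to *Tgfbr1* (0.0742), *Dcaf10* (0.0764) and *Rasa1* (0.0768), and *Mef2d* to *Rpap1* (0.0497), *Bag6* (0.0733) and *Frmd8* (0.0776). Among the factors themselves the closest pair was *Myf6* and *Mef2c* (0.347) and the farthest *Myog* and *Myf6* (2.43).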

How the data were processed

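Gastrocnemius RNA of 13-week-old mice was poly(A) selected and sequenced as single reads. The authors deposited RSEM expected counts and TPM values per gene for mm10, made with RSEM 1.2.4, Bowtie and TopHat2 2.0.8b per the labels and methods. The deposited TPM values sum to the same total in each library, with no further scaling. Groups followed the strain and TMX labels. The expected counts were rounded (84 of 84 values of the 7 factors were whole) and tested with edgeR 4.0.16 (filterByExpr, TMM, quasi-likelihood F-test, 4 groups in 1 fit, Benjamini-Hochberg over 16679 genes). SE was the log2 fold change over the root of F. Ratios used counts + 0.5 and exact permutation tests (scipy). DESeq2 1.42.0, limma 3.58.1 on log2(TPM + 1), other scalings, filters, references and thresholds, and leaving out each mouse, were alternatives. The script was tested on simulated data. Named genes were the factors, the gene lists, the 3 nearest profiles of each factor, *Esr1* and *Wfdc3*. A list gene is not reported here. The members and lists were chosen with earlier results of these data known. Replicates are single mice. Depth and 3 mice per group limit precision, most for *Myf5*. No comparison used a column without a sample.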

Additional observations from a re-analysis of the deposited data

Results flagged for a closer look

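The severe and moderate models differed from each other past both the adjusted p and the fold threshold for 5 of the 7 factors. The edgeR test was of the difference itself, with 3 mice against 3. Of all genes tested, 17.6% were called higher and 18.8% lower there, and 61.3% had groups that did not overlap. *Mef2a* (0.39) and *Mef2d* (-0.28) passed the adjusted p alone, with groups that did not overlap. *Myod1* was higher in severe mice by 2.0 on the log2 scale, *Myog* by 1.60 and *Myf5* by 0.88, each in 3 of 3 mice above all moderate mice. *Myf6* was at -0.71 and *Mef2c* at -1.24, each in 3 of 3 severe mice below all moderate mice. The *Myf6* difference was 0.0088 in limma on log2(TPM + 1) and -0.017 with library size alone, both not called. Those of *Mef2c* were -0.58 and -0.55, both called. The number of TMX injections and the dose differ together between the models and cannot be told apart.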

How the results depend on the processing

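Scaling was the choice that moved most. For moderate against control mice, the 2 factors called higher became 5 with library size alone, 4 with library size without the 20 largest genes and 4 in limma on log2(TPM + 1). The 0 called lower became 1 with FLExD mice as the reference and 2 with no fold threshold, and ranged from 0 to 1 when single mice were left out, the factor being *Myf6* (-0.69 without moderate mouse 1331). For severe against control mice, the 3 called lower became 0 with library size alone, 1 without the 20 largest genes and 0 in limma. The reversed values there, with library size alone and in limma on TPM, were 0.11 and 0.00084 for *Myf6*, 0.29 and 0.14 for *Mef2c*, and 0.68 and 0.54 for *Mef2d*. For severe against moderate mice the 2 called lower became 1 with library size alone, 1 without the 20 largest genes, 1 in limma and 1 at a log2 fold change of at least 1, and *Myf6* turned to 0.0088 in limma. Of the pathway list genes, 38 were called higher and 10 lower with library size alone in moderate mice (25 and 22 under TMM), 48 and 16 in severe mice (27 and 29), and 39 and 14 between the models (20 and 27). The share of all genes called was computed under TMM only. Counts of factors and list genes under the other settings therefore cannot be set against such a share. TMM factors are made to hold most genes near 0, with medians over all genes of 0.04 in moderate and 0.08 in severe mice. Library size alone sets no such condition (0.65 in moderate and 1.39 in severe mice). The cause of the scaling differences themselves was not tested. Median-of-ratios factors, DESeq2, both count filters, 2-group fits and an adjusted p under 0.01 left each count of factors called within 1.5 times its TMM value. The log2 ratio of *Mef2a* to *Mef2c* in moderate mice differed from that of single-transgenic mice by -0.29 in TPM and passed the test. No paired analysis was possible because the groups share no replicate numbers.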
